A study of Drosophila melanogaster with 5 samples.

Results

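Mitochondrial ribosomal proteins are made from nuclear genes, imported into mitochondria and assembled with mitochondrial rRNA into the ribosomes that translate the few proteins encoded by mitochondrial DNA, which are subunits of the respiratory chain and of ATP synthase. They are distinct from the proteins of the cytosolic ribosome, and many of them descend from bacterial ribosomal proteins while others were gained in mitochondria. The genes described here are those of Drosophila melanogaster whose symbol starts with mRpL (large subunit) or mRpS (small subunit). Of 73 such symbols, 71 were matched by locus tag and listed in the deposited counts, 46 of the large and 25 of the small subunit, among 13265 genes in all. The other 2, mRpL37 and mRpS34, were not matched. By their numbers, 28 large and 14 small subunit proteins have the number of a bacterial protein (up to L36 and S21), and 18 large and 11 small subunit proteins have a higher number. The symbols follow the older naming, in which mRpS30 and mRpS18A are listed as small subunit proteins although their mammalian counterparts sit in the large subunit.

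The study asked about the transcription that transposable elements give rise to, and it sequenced polyadenylated RNA in 5 libraries, with 1 library to each group. From the line iso1a, 20 ovaries (5 µg RNA) gave a pyrosequenced library, titled Iso1a-454-5′ and labelled normalization yes, and a Solexa library labelled normalization no, both of capped 5′ ends (CAGE) with the strand kept. Whole bodies of the lines iso1a (normalization yes), Rev and IR6 (both normalization no) gave 3 random-primed Illumina libraries without strand. Each pooled 10 adult males younger than 24 h with 10 adult females of 0 to 3 days. The labels give no further genotype for the lines and do not say what the normalization was. No difference below could be checked against replicates, so p-values are not given, and every interval is an exact 95% interval that covers counting error alone.

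The libraries held 109980 (pyrosequenced ovary), 2813522 (Solexa ovary), 4379746 (iso1a body), 11685814 (Rev) and 9633168 (IR6) gene counts. Levels are given as CPM, the usual counts scaled to the gene total of a library, and 3 counts, taken as the floor, equal 27.3, 1.07, 0.685, 0.257 and 0.311 CPM in the same order. Markers of the ovary (8 genes such as Cp15 and vas) summed to 62111 and 56314 CPM in the pyrosequenced and Solexa ovary libraries. These sums rest on Cp15 (41471 and 14450 CPM), Vm26Aa (16058 and 36084 CPM) and Cp36 (4037 and 4684 CPM). The gene bam (0 and 9.60 CPM) was lower there than in every body. So were vas in the pyrosequenced library (5 counts, 45.5 CPM) and osk in Solexa (102 CPM). In both libraries Yp1 (81.8 and 762 CPM) was far below Rev and IR6. All 4 markers of the male accessory gland and both eye markers were at 0 in both. The 5 testis markers summed to 9.09 and 0 CPM, the muscle markers to 9.09 and 11.7 CPM, and the gut markers to 0 and 27.7 CPM. Every marker was listed in each whole body. In the iso1a body the ovary markers summed to 1674 CPM, against 46354 CPM in Rev and 47101 CPM in IR6, the 5 testis markers to 1125 CPM, against 478 and 617 CPM, and the 4 accessory gland markers to 1418 CPM, against 538 and 775 CPM. The gut markers (2 genes) summed to 79.5 CPM in the iso1a body, against 581 and 946 CPM, the 2 eye markers to 598 CPM, against 1412 and 2956 CPM, and the 3 muscle markers to 2811 CPM, against 2798 and 2573 CPM. Single markers did not all follow their sums. Between the bodies, the difference in the ovary sum rests on the yolk protein gene Yp1 (225 CPM in iso1a, against 42335 and 42958 CPM). It rests also on Cp36 (33.6 CPM, against 2723 and 2993 CPM). Higher in iso1a were osk (898 CPM, against 396 and 220 CPM), bam (122, against 48.2 and 73.5 CPM) and nanos (203, against 30.8 and 147 CPM). The gene vas was close (91.3, against 93.5 and 75.9 CPM). The testis marker betaTub85D also ran against its list, with 70.8 CPM in iso1a, against 327 CPM in Rev and 396 CPM in IR6. In such whole tissues, fewer cells of a type and less RNA per cell cannot be told apart.

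Mitochondrial ribosomal protein genes were detected throughout the whole bodies at moderate levels. All 71 had counts in each body, with 32 to 1341 (iso1a), 54 to 2353 (Rev) and 70 to 1913 counts (IR6). In the ovary, 63 were listed in the pyrosequenced library and 70 in the Solexa library, where the median gene of the group had 5 and 191 counts. The 8 genes at 0 in the pyrosequenced library (mRpL1, mRpL16, mRpL18, mRpL24, mRpL38, mRpL45, mRpS31 and mRpS33) may lie below its floor of 27.3 CPM. The median level of the group was 45.5 CPM in the pyrosequenced library, 67.9 CPM in Solexa, 66.4 CPM in the iso1a body, 44.2 CPM in Rev and 49.7 CPM in IR6. The median over all genes listed in each library was lower in every library, at 27.3, 22.7, 29.9, 20.5 and 19.5 CPM in the same order.

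**Figure D1:**
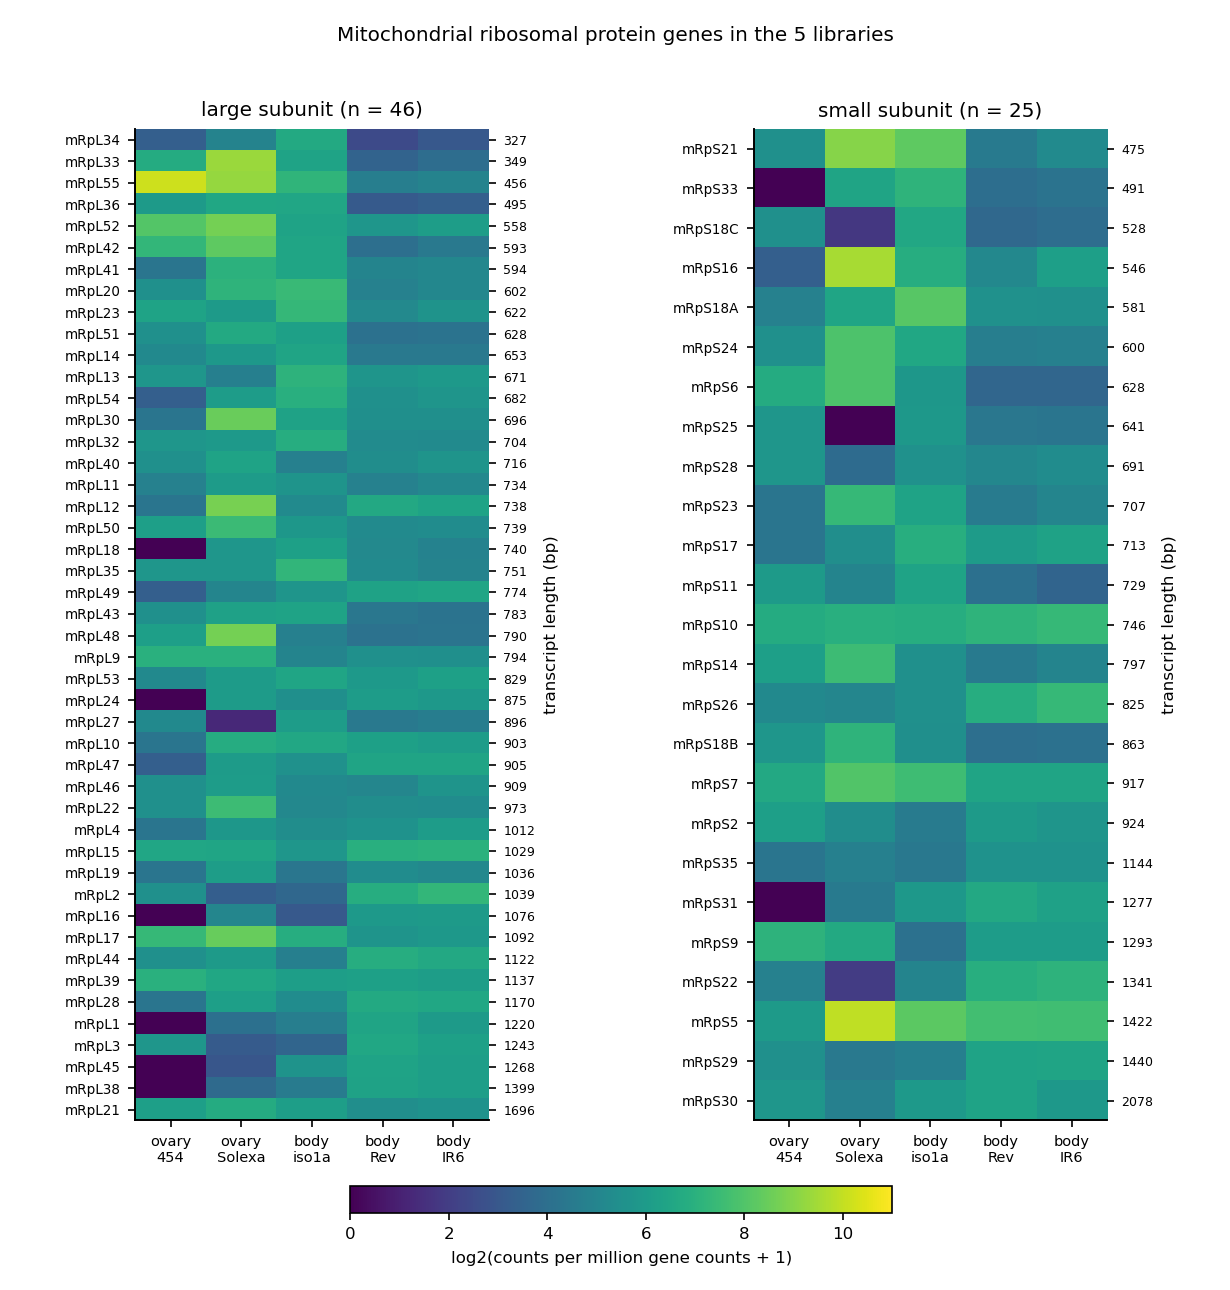
Level of each of the 71 mitochondrial ribosomal protein genes in each library, as log2(CPM + 1) by colour, with large subunit genes on the left, small subunit genes on the right, and genes ordered from the shortest transcript at the top (its length in bp is at the right of each panel). Most short genes are brighter in the iso1a body than in Rev and IR6, and most long genes are darker there, with exceptions such as mRpS5, mRpL17 and mRpL21.

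Together the 71 genes made up 0.472% of the pyrosequenced library's gene counts (95% Clopper-Pearson interval 0.432 to 0.514) and 1.03% in Solexa (1.02 to 1.04). They held 0.563% in the iso1a body (0.556 to 0.570), against 0.382% in Rev (0.378 to 0.385) and 0.400% in IR6 (0.396 to 0.404). Cytosolic ribosomal proteins, the 86 genes of the ribosome outside mitochondria, held far more and ranked the libraries otherwise. Their share was 29.6% in the pyrosequenced library and 25.1% in Solexa, and it was 1.39% in the iso1a body, against 9.08% in Rev and 11.3% in IR6. In the iso1a body, the share of mitochondrial ribosomal protein genes was therefore above that in both other bodies, and the share of cytosolic ones was below it. A share depends on the other genes of its library, which the intervals do not cover. With totals scaled by TMM factors, the group's median log2 ratio of iso1a over Rev and IR6, described below, went from 0.55 to 0.00.

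Random-primed reads fall along the whole transcript, so levels of different genes in the bodies are compared per kb of the canonical BDGP6 transcript. Within the group, CPM rose with transcript length in Rev (Spearman's rho 0.70) and IR6 (0.60) but fell in the iso1a body (−0.61). Division by length adds to that trend in the iso1a body, so its values per kb are to be read with care. The median was 76.3 CPM per kb in the iso1a body, 54.4 in Rev and 55.8 in IR6, against 143, 782 and 774 CPM per kb for cytosolic ribosomal proteins in the same bodies. Per kb, the 90th percentile of the group was 4.36 times the 10th percentile in Rev and 4.25 times in IR6. In the iso1a body it was 12.9 times. Without division by length the same ratio was 6.70 in Rev, 5.38 in IR6 and 6.41 in iso1a. The wider spread in iso1a was thus seen per kb and not in CPM. For the cytosolic proteins the ratio per kb was 7.15 in iso1a, 8.95 in Rev and 12.9 in IR6.

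By the geometric mean of CPM over the 3 bodies, the highest genes were mRpS5, mRpS10, mRpS7, mRpS26, mRpL15 and mRpS17. The gene mRpS10, for a protein of the head of the small subunit, had the highest level per kb in Rev (191 CPM per kb) and IR6 (221), and 154 CPM per kb in the iso1a body. The gene mRpS26 had 54.8 CPM per kb in the iso1a body, against 141 in Rev and 201 in IR6. The gene mRpS5 had 210 CPM per kb in iso1a, 142 in Rev and 140 in IR6, and mRpS7 had 206 in iso1a, 92.7 in Rev and 91.8 in IR6. These 4 small subunit genes thus kept no common order among the bodies. The lowest by the same mean were mRpL34, mRpL36, mRpS6 and mRpL48, which had from 14.1 to 21.1 CPM per kb in Rev and from 17.9 to 22.2 in IR6. In the iso1a body, mRpL34 had 309 CPM per kb and mRpL48 had 33.8, so the short gene of the pair stood among the highest per kb there.

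The median transcript of the group is 783 bp long, from 327 to 2078 bp, while the median over all genes is 1798 bp, and 50 of the 71 are shorter than 1000 bp. Across the 71 genes, Spearman's rho of CPM with transcript length was −0.61 in the iso1a body, 0.70 in Rev and 0.60 in IR6, and −0.10 in the pyrosequenced and −0.34 in the Solexa ovary library. Ranks within the group were alike in Rev and IR6 (rho 0.95 over 71 genes, and 0.97 over all genes listed in both). Between the iso1a body and Rev they ran the other way (rho −0.32), as between iso1a and IR6 (−0.26), although over all genes rho was 0.68 in both pairs. These are descriptions across genes, which share library and depth and are not independent.

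In the BDGP6 annotation, 42 of the 71 genes (59.2%) share exonic bases with another annotated feature, against 35.1% of 12803 measured genes. For 41 of them a partner lies on the opposite strand, and 3 have a partner on the same strand. Over all partners on either strand the median overlap is 55 shared bp. The whole 829 bp transcript of mRpL53 lies within exons of CG33155, so its counts (378 in the iso1a body, 717 in Rev and 727 in IR6, identical to those of CG33155) cannot be assigned to either. Reads of overlapping genes cannot be told apart in the unstranded bodies.

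Rev and IR6 bodies carry the same labels apart from the line, and their comparison shows how much the group differs between these libraries. With 1 library to each line, differences of line and of library cannot be told apart. At least 2-fold differences were nearly absent. Of the 71 genes, 0 were higher in Rev and 1 was lower, beside 4.34% higher and 3.47% lower among the 10300 genes that reached 50 counts over both libraries. All 71 genes passed that minimum, and each had at least 50 counts in Rev alone and in IR6 alone. Their median log2 ratio was −0.09, against 0.10 over all genes. Counting error alone was small enough that the interval lay above 0 for 16 genes, below 0 for 25 and held 0 for 30. With TMM factors the medians were −0.18 for the group and 0.01 over all genes.

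The gene lower in Rev was mRpS16, for a small subunit protein whose human counterpart is mutated in a mitochondrial disease. It had 394 counts (33.7 CPM) in Rev and 697 counts (72.4 CPM) in IR6, a log2 ratio of −1.10 (−1.28 to −0.92). Its transcript shares 13 bp with the more abundant gene ReepB on the other strand, which had 1960 counts in Rev and 1173 in IR6. ReepB was thus higher in Rev by counts, where mRpS16 was lower.

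No other gene of the group reached 2-fold between Rev and IR6. The next lowest ratios were those of mRpS21 (260 counts in Rev and 359 for IR6, log2 ratio −0.74), mRpL34 (54 and 70, −0.65), mRpL46 (374 and 483, −0.65) and mRpL4 (551 and 651, −0.52). The first 3 of these 4 passed 1.5-fold together with mRpS16, beside 9.33% of all genes lower at that fold. The highest ratio was that of mRpS11, for a protein of the platform of the small subunit, with 185 counts in Rev and 103 in IR6 (0.56, 0.21 to 0.93). Next were mRpS30 (965 and 545, 0.55), mRpL1 (1002 and 606, 0.45), mRpL35 (437 and 279, 0.37) and mRpS31 (1161 and 743, 0.37). At 1.5-fold 0 of the 71 genes were higher in Rev, beside 13.7% of all genes.

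**Figure D2:**
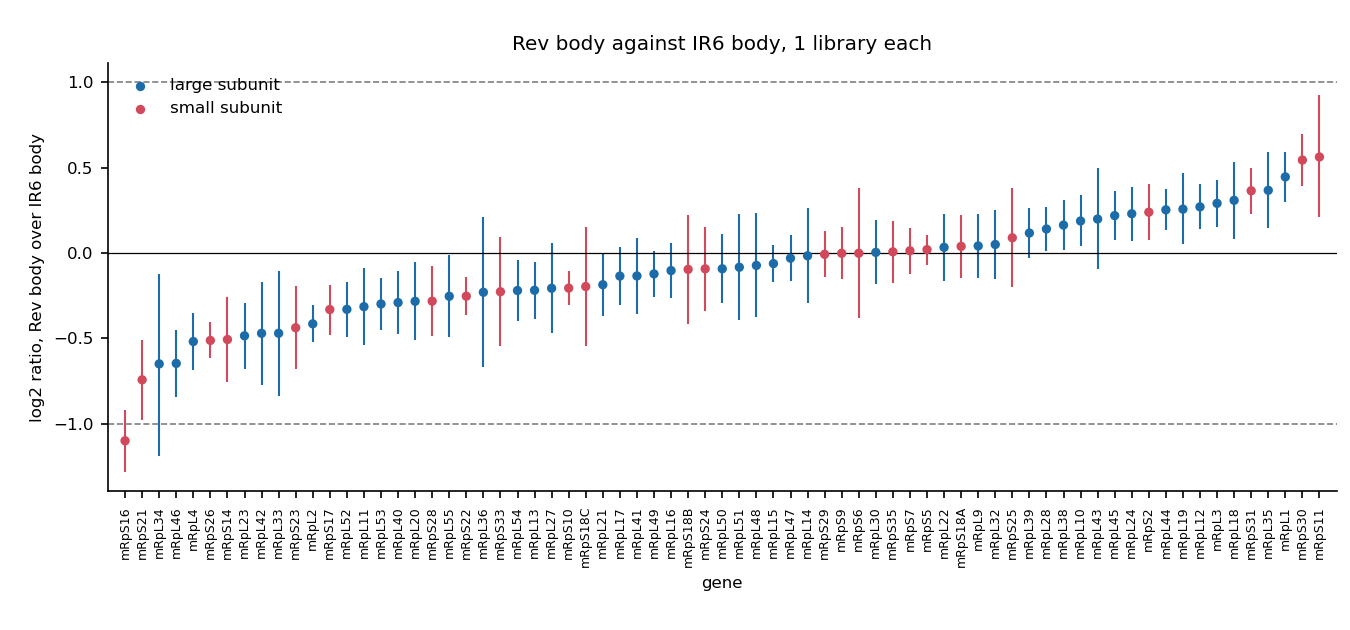
Log2 ratio of Rev over IR6 for each of the 71 genes, ordered by ratio, with exact 95% intervals (counting error alone) as vertical bars and the 2-fold limits as dashed lines. The ratio of mRpS16 (−1.10) lies beyond a limit and those of the other 70 genes lie between −0.74 and 0.56.

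Between Rev and IR6 the ratio was related to length, with rho 0.47 across the 71 genes and 0.33 across all genes. The 12 genes under 600 bp had a median log2 ratio of −0.29 and the 19 genes of 1000 to 1500 bp a median of 0.02. Over all genes the medians in these classes of length were −0.44 and −0.02. The subunits did not stand apart, with medians of −0.09 over 46 large and −0.09 over 25 small subunit genes. Cytosolic ribosomal proteins had a median of −0.14, with 0 higher and 1 lower of 84.

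Other genes of mitochondrial gene expression also stayed mostly within 2-fold between Rev and IR6. Of 7 translation factors 1 was higher, the release factor gene mRF1, at 419 in Rev, against 132 counts in IR6 (ratio 1.38 on the log2 scale). Of 13 genes of mitochondrial transcription and DNA maintenance, the termination factor gene mTTF was higher (510 and 126 counts, 1.73) and the gene of the DNA polymerase accessory subunit PolG2 was lower (111 and 197, −1.10). Of 15 mitochondrial aminoacyl-tRNA synthetases and 18 measured import genes, 0 were called. The genes tko and bonsai, which encode mitochondrial ribosomal proteins under other symbols, had 639 and 731 counts in Rev, and 714 and 535 in IR6, with neither 2-fold apart.

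The iso1a body was set against Rev and IR6 to find how that line differs, but its normalization label differs as well, so line and label cannot be told apart. A gene was called where the ratios to both Rev and IR6 passed 2-fold in the same direction, and its size is the ratio closer to 0. Of the 71 genes, 29 were higher in iso1a, 15 were lower and 27 were neither, beside 35.2% higher and 19.3% lower of 10316 genes. Under TMM factors the split was 20 higher and 22 lower, beside 25.4% and 27.8% of all genes. The group's median size was 0.55, against 0.28 over all genes, and 0.00 for both with TMM factors. The shares of called genes were thus near those of all genes, and the count and balance of calls in the group do not set it apart.

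The ratios within the group followed transcript length. All 71 genes passed the minimum, and rho of the log2 ratio with length was −0.80 against Rev and −0.76 against IR6, while across all genes it was −0.13 and −0.06. Under 600 bp, 10 of 12 genes were higher in iso1a and 0 lower, with a median of 2.58. From 600 to 800 bp, 15 of 27 were higher and 1 lower (median 1.16), and from 800 to 1000 bp 3 of 11 were higher and 2 lower (median 0.00). From 1000 to 1500 bp, 1 of 19 was higher and 12 were lower (median −1.21). The 2 longest genes did not go on downwards. The gene mRpL21 (1696 bp) had 309 counts in iso1a, against 497 (Rev) and 466 (IR6), with log2 ratios of 0.73 and 0.55, and mRpS30 (2078 bp) had 255, against 965 and 545 (−0.50 and 0.04). Over the first 4 classes, 426 of 499, 443 of 689, 314 of 790 and 440 of 1894 of all genes were higher in iso1a. Lower were 18, 62, 124 and 530 of them. The group's share called higher under 600 bp (83.3%) was thus near that of all genes (85.4%). Its share called lower from 1000 to 1500 bp (63.2%) was above theirs. All genes had medians of 3.15, 1.62, 0.50 and 0.00 over the first 4 classes, 0.00 from 1500 to 2500 bp, and 0.56 above 2500 bp, where the group has no member. The part of length and of the normalization label in these differences was not tested, nor that of the ovary, testis, accessory gland, gut and eye markers whose levels differed between the bodies as given above.

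**Figure D3:**
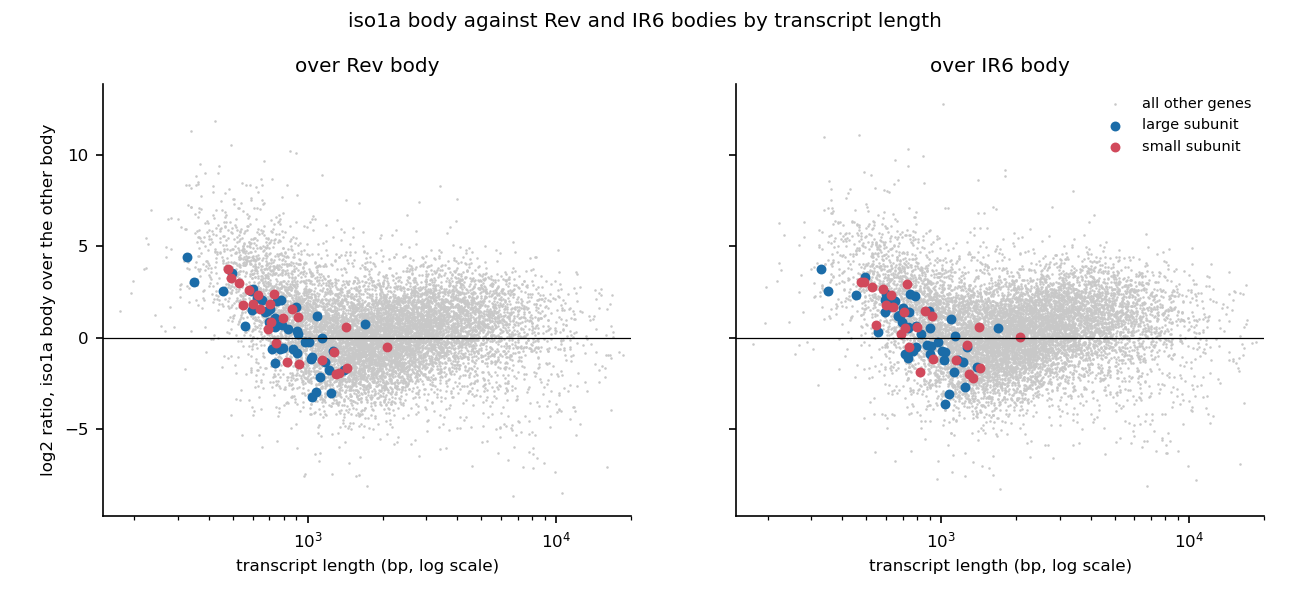
Log2 ratio of the iso1a body over Rev (left) and over IR6 (right) against transcript length in bp (log scale), with large subunit genes in blue, small subunit genes in red and all other genes in grey. Most genes of the group fall along a slope. It runs from 4.44 (over Rev) and 3.79 (over IR6) for mRpL34 (327 bp) to −3.26 and −3.67 for mRpL2 (1039 bp). Among the genes above it are mRpL17 (1.17 and 1.04), mRpL39 (−0.05 and 0.07) and mRpS5 (0.57 and 0.59). The 2 longest, mRpL21 (0.73 and 0.55) and mRpS30 (−0.50 and 0.04), lie off it near 0.

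The genes highest in the iso1a body had short transcripts. The gene mRpL34 had 442 counts (101 CPM) in iso1a, against 54 (4.62 CPM) in Rev and 70 (7.27 CPM) in IR6. Its log2 ratios were 4.44 (4.04 to 4.88) over Rev and 3.79 (3.43 to 4.18) over IR6. The gene mRpL36 had 393 counts in iso1a, against 90 (Rev) and 87 (IR6), with log2 ratios of 3.54 and 3.31. These 2 genes, among the lowest of the group in Rev and IR6, were above its median level of 66.4 CPM in iso1a, with 101 and 89.7 CPM.

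Among small subunit genes, mRpS33 had 623 counts in iso1a, against 170 (Rev) and 164 (IR6), with log2 ratios of 3.29 and 3.06. The gene mRpS21 had 1341 counts (306 CPM), the most of the group in iso1a, against 260 (22.2 CPM) in Rev and 359 (37.3 CPM) in IR6 (3.78 and 3.04). The gene mRpS18C had 424 counts, against 144 and 136 (2.97 and 2.77). All of these 5 genes have transcripts of 327 to 528 bp.

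The genes lowest in iso1a had longer transcripts. The gene mRpL2, whose bacterial counterpart lies next to the centre where peptide bonds form, had 52 counts (11.9 CPM) in iso1a, against 1340 (114.7 CPM) in Rev and 1473 (153 CPM) in IR6. Its log2 ratios were −3.26 (−3.70 to −2.87) over Rev and −3.67 (−4.11 to −3.29) over IR6. The gene mRpL16 had 32 counts, against 688 in Rev and 609 in IR6 (−2.99 and −3.09), and mRpL3 had 49, against 1081 and 728 (−3.03 and −2.74). Both are core proteins of the large subunit with bacterial counterparts. Genes with a bacterial number were not mostly low, with 12 higher and 7 lower of 28 in the large subunit. In the small subunit 7 were higher and 2 lower of 14.

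In the small subunit the lowest were mRpS9, with 72 counts in iso1a, against 783 (Rev) and 646 (IR6), with log2 ratios of −2.02 and −2.02, and mRpS22, with 132, against 1366 and 1342 (−1.95 and −2.20). The transcripts of these 5 low genes are 1039 to 1341 bp long. A longer gene that was higher in iso1a was mRpL17 (1092 bp), with 509 counts in iso1a, against 602 (Rev) and 545 (IR6), with log2 ratios of 1.17 and 1.04. It shares 258 bp with the gene CG34263, which had 40, 21 and 8 counts in the same bodies. With TMM factors or median-ratio size factors, the sizes of all 10 genes at the ends stayed past 2-fold. These factors move all ratios to a reference alike, by less than 2-fold, so the direction of these genes could not change.

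By subunit, the calls were 18 higher and 9 lower of 46 large subunit genes and 11 higher and 6 lower of 25 small subunit genes. The 3 paralogs that share the number S18 all were higher in iso1a. The gene mRpS18A had 1220 counts in iso1a, against 536 (Rev) and 430 (IR6), with log2 ratios of 2.60 and 2.64, and mRpS18B had 193, against 176 and 155 (1.55 and 1.45), beside mRpS18C above. The 3 differed in length, with 581, 863 and 528 bp for A, B and C.

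Cytosolic ribosomal proteins went the other way at a similar length. Their median transcript is 805 bp long, and 65 of 85 were lower in iso1a and 3 higher, with a median of −2.43. An example is RpL23, with 441 counts in iso1a, against 48627 (Rev) and 75067 (IR6). A few low members of that list were higher, such as RpS19b with 159 counts, against 8 and 16. So genes of similar length but of much higher level in Rev and IR6 had lower ratios than mitochondrial ribosomal protein genes, and the part of level in this was not tested.

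Calls in iso1a among genes that work beside the mitochondrial ribosome are read beside the 35.2% higher and 19.3% lower of all genes, so the counts alone do not set these genes apart. Of 15 mitochondrial aminoacyl-tRNA synthetases, whose median transcript is 2552 bp long, 4 were lower and 0 higher. The gene SerRS-m had 30 counts in iso1a, against 580 (Rev) and 393 (IR6), with log2 ratios of −2.83 and −2.55, and ArgRS-m had 25, against 334 and 267 (−2.30 and −2.25). Of 7 translation factors 2 were lower, mEFTu1 (130 counts, against 1721 and 1011) and mEFTs (187, against 1383 and 1480), which encode the elongation factor that brings tRNA to the ribosome and its exchange factor. The recycling factor gene mRRF1 was higher (225, against 135 and 98).

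Of 13 genes of mitochondrial transcription and DNA maintenance, 2 were higher and 2 lower in iso1a, among them SLIRP2 (495 counts, against 255 in Rev and 269 in IR6) and SLIRP1 (255, against 1893 and 1801). Of 19 import genes 6 were higher and 1 lower. The small chaperone gene Tim13 had 244 counts in iso1a, against 10 (Rev) and 22 (IR6), with log2 ratios of 5.96 and 4.58, and the translocase gene Tim17b had 3662, against 1968 and 1598 (2.31 and 2.33). The genes tko (316, against 639 and 714) and bonsai (309, against 731 and 535) were not called.

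In the ovary, CAGE reads come from the 5′ end of a transcript, so levels there are compared without dividing by length. The highest genes in the Solexa library were mRpS5 with 2739 counts (974 CPM), mRpS16 with 2127 (756 CPM), mRpL33 with 1827 (649 CPM), mRpL55 with 1736 (617 CPM) and mRpS21 with 1427 (507 CPM). The gene tko, which encodes the small subunit protein S12 of the decoding site, stood above all of them with 3084 counts (1096 CPM). The lowest were mRpS25 with 0, mRpL27 with 4, mRpS18C with 7 and mRpS22 with 8 counts. The range within the group was wide, as the 90th percentile was 31.2 times the 10th.

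The pyrosequenced and Solexa libraries come from ovaries of the same line and measure the same ends, with another platform and another normalization label. The group's share of gene counts, given above, was 0.472% in the pyrosequenced and 1.03% in the Solexa library. Counts of calls depend on the minimum here. With no minimum, 11 of the 71 genes were higher and 36 lower in the pyrosequenced library, beside 37.6% higher and 25.7% lower of 6547 genes, and the medians were −1.02 for the group and 0.26 over all genes. At the minimum of 50 counts, which most genes reached through Solexa and which lower genes therefore pass more easily, 61 of the 71 genes were left. Among those 61, 4 were higher and 34 lower, beside 14.9% higher and 40.5% lower of 3366 genes, with medians of −1.10 and −0.67 (−1.02 and −0.40 with genes at 0 put at 3 counts). The median over all genes thus changed sign with the minimum, and the counts at 50 are a description of the genes that passed. Of these, the intervals of 31 genes held 0, those of 29 lay below 0 and that of 1, mRpL55, lay above it. In the pyrosequenced library 26 genes of the group had 3 or fewer counts and 12 had 10 or more, so depth limits these ratios.

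The gene mRpL55 alone stood out in the pyrosequenced library, with 127 counts (1155 CPM), against 1736 (617 CPM) in Solexa, a log2 ratio of 0.91 (0.63 to 1.16) that was short of 2-fold. The gene mRpL52 came next in counts, with 29 (264 CPM), against 1155 (411 CPM) in Solexa, and the other 69 genes had at most 18 counts in the pyrosequenced library. The largest shortfall was that of mRpS16, with 1 count in the pyrosequenced library, against 2127 in Solexa (−5.79, −11.68 to −3.90). This gene, among the highest in Solexa, was thus nearly missing from the pyrosequenced library.

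The gene mRpL12, for the stalk protein to which translation factors bind, had 2 counts in the pyrosequenced library, against 1199 in Solexa (−4.23). The other large shortfalls were those of mRpL30 (2 against 1019, −3.99) and mRpS5 (7 against 2739, −3.84), and of mRpS33, with 0 against 241, at least 3.14-fold lower. The 4 genes called higher were mRpS29 (5 counts in the pyrosequenced library and 59 in Solexa), mRpL13 (6 and 73), mRpS11 (7 and 85) and mRpS30 (6 and 75), with log2 ratios of 1.14 to 1.24 whose intervals all held 0. The next highest, mRpS2, had 8 and 114 counts (0.93, −0.40 to 1.87). No gene called higher in the pyrosequenced library was therefore beyond counting error.

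**Figure D4:**
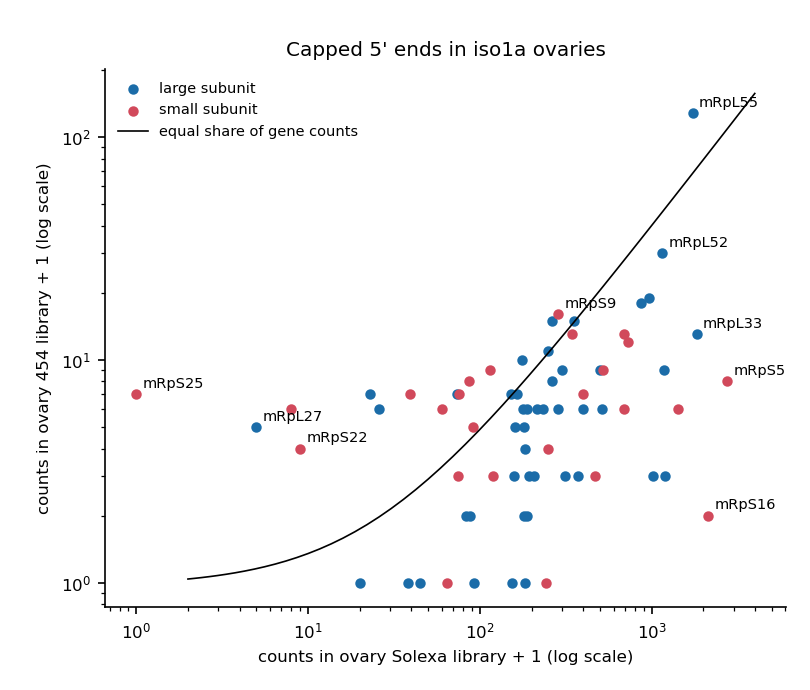
Counts of each of the 71 genes in the pyrosequenced ovary library (vertical) against the Solexa ovary library (horizontal), both as counts + 1 on log scales, with large subunit genes in blue and small subunit genes in red. The line marks an equal share of gene counts. Most genes with over 200 Solexa counts lie below it, mRpL55 (127 and 1736 counts) lies above it, and mRpS25 has 6 counts in the pyrosequenced library and 0 in Solexa.

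The gene mRpS25 had 6 counts (54.6 CPM) in the pyrosequenced library and 0 in Solexa, whose floor allows up to 1.07 CPM. The libraries thus differed on whether reads were assigned to it, although it did not reach the minimum. The part of annotation and read mapping in this was not tested. Of 80 cytosolic ribosomal proteins that passed it, 39 were higher and 9 lower in the pyrosequenced library, with a median of 0.84. The gene tko had 5 counts in the pyrosequenced library, against 3084 in Solexa (−4.45), and bonsai had 12, against 206 (0.63). Across the 71 genes rho of the levels in these libraries was 0.39, and across all genes listed in both it was 0.58.

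The Solexa ovary library was compared with the Rev and IR6 bodies, which share its normalization label but differ in tissue, line and assay together. Calls here need 4-fold. Of the 71 genes, 23 were higher in the ovary library and 8 lower, beside 5.28% higher and 57.9% lower of 9113 genes. The group's median size was 0.60, against −2.89 over all genes (0.60 and −2.47 with genes at 0 put at 3 counts). Whole bodies count a transcript along its length and CAGE at its end, so per molecule a short transcript has fewer body counts, and the group is short. With body counts divided by transcript length, 10 of the 71 genes were higher and 13 lower, beside 4.74% and 52.7% of 9038 genes, and the medians were 0.00 for the group and −2.31 over all genes. On either scale the share of the 71 genes called lower was under the share of all genes called lower.

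The gene mRpL33, for a small protein of the large subunit, had 1827 counts (649 CPM) in the ovary library, against 119 (10.2 CPM) in Rev and 136 (14.1 CPM) in IR6. Its log2 ratios were 5.99 (5.73 to 6.27) and 5.52 (5.27 to 5.79), and its size with body counts per length was 3.50. The gene mRpL48 had 1181 counts (420 CPM), against 195 (16.7 CPM) in Rev and 169 (17.5 CPM) in IR6, with log2 ratios of 4.65 and 4.58 and a size per length of 3.70. Both were thus past 4-fold on either scale. The exons of mRpL48 share 164 bp with the gene frtz and 55 bp with an annotated copy of the LTR retrotransposon mdg3, both on the opposite strand, and frtz had 0 counts in the ovary library.

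The gene mRpS6 had 686 counts in the ovary library, against 131 in Rev and 108 in IR6 (4.44 and 4.44), mRpL55 had 1736, against 290 and 285 (4.63 and 4.38), and mRpL42 had 871, against 175 and 200 (4.37 and 3.90). Per length their sizes were 3.15, 2.74 and 2.64, so these also stayed past 4-fold. The gene tko was higher too, with log2 ratios of 4.32 over Rev and 3.89 over IR6, while bonsai was not called.

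The lowest genes in the ovary library were those with hardly any counts there. The gene mRpS25 had 0 counts, against 226 (Rev) and 175 (IR6), at least 18.1-fold and 17.0-fold lower. The gene mRpS22, whose human counterpart is mutated in a mitochondrial disease, had 8 counts (2.84 CPM), against 1366 (117 CPM) in Rev and 1342 (139 CPM) in IR6, with log2 ratios of −5.27 (−6.58 to −4.38) and −5.53 (−6.83 to −4.63). The gene mRpL27 had 4 counts, against 246 and 234 (−3.72 and −3.93). Each of these 3 had at least 175 counts in both bodies.

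The other genes at this end were mRpL2, with 25 counts, against 1340 in Rev and 1473 in IR6 (−3.66 and −4.08), and mRpL45, whose human counterpart ties the ribosome to the inner membrane, with 19, against 962 and 681 (−3.57 and −3.35). Per length mRpS25 was at least 43.3-fold (Rev) and 37.7-fold (IR6) lower, and the sizes of the other 4 were −5.47, −4.49, −4.22 and −3.51 in the order given, so all 5 were past 4-fold on either scale.

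**Figure D5:**
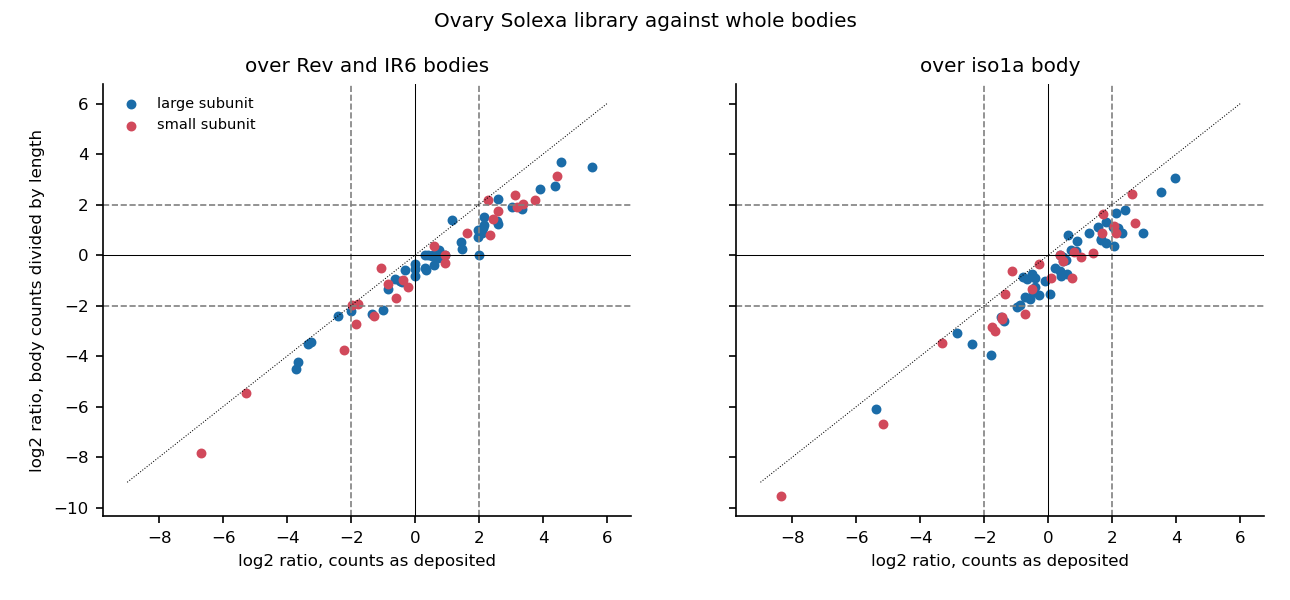
Log2 ratio of the Solexa ovary library over Rev and IR6 (left, the ratio closer to 0) and over the iso1a body (right), with body counts divided by transcript length (vertical) against counts as deposited (horizontal), for large subunit genes in blue and small subunit genes in red. Dashed lines mark 4-fold and the dotted line equal values. Nearly all genes lie below the dotted line, and mRpL48 and mRpL33 (top right) and mRpS25 (bottom left) are at the ends of the left panel, where mRpS25 has 0 ovary counts and its place is set by the 0.5 counts added.

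Within the small subunit, proteins with a bacterial number and those with a higher number had medians of opposite sign in this comparison. The 14 genes with a bacterial number had a median of 1.28, with 6 higher and 1 lower, and the 11 with a higher number had a median of −1.28, with 3 higher and 2 lower. The medians of their transcripts were 738 and 825 bp. With body counts per length these medians were 0.61 and −1.93. In the large subunit the corresponding medians were 0.61 over 28 genes and 0.56 over 18 genes, and 0.00 in both per length. How far such a median lies from 0 depends on the totals, as TMM factors moved that of all 71 genes from 0.60 to 1.60. The S18 paralogs spread widely, with mRpS18B at 396 counts in the ovary library, against 176 and 155 (3.22 and 3.13), mRpS18A at 248, against 536 and 430 (0.94 and 0.98), and mRpS18C at 7, against 144 and 136 (−2.21 and −2.41). Per length their sizes were 2.39 (B), −0.30 (A, which changed sign) and −3.75 (C). Paralogs that share a number thus fell on either side of 4-fold and between.

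Over the same bodies, genes of mitochondrial DNA, tRNA charging and translation factors had calls that were lower for the most part, as had all genes (57.9% lower and 5.28% higher), so these counts do not set them apart. Of 13 genes of transcription and DNA maintenance 9 were lower and 0 higher, among them PolG1, the mitochondrial DNA polymerase gene, with 0 counts, against 217 (Rev) and 132 (IR6), at least 17.4-fold and 12.9-fold lower, and mtTFB2 with 0, against 390 and 237. Of 15 synthetases 6 were lower and 0 higher, with AspRS-m at 0, against 577 and 402 (at least 46.3-fold and 39.1-fold). Of 7 translation factors 3 were lower, among them mEFG1 with 0, against 687 and 619, and mRRF1 was higher (138, against 135 and 98).

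Of 18 measured import genes 5 were higher and 4 lower. The outer membrane translocase gene Tom7 had 6063 counts, against 575 in Rev and 651 in IR6 (5.45 and 4.99), and Tim23 had 3779, against 2065 and 1425 (2.93 and 3.18). The 4 lower were Tim17 paralogs, all with 0 counts in the ovary library. Cytosolic ribosomal proteins had 15 higher and 32 lower of 84, with a median of −1.06.

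The Solexa ovary library and the iso1a body share the line, while tissue, assay and normalization label differ. Of the 71 genes, 13 were at least 4-fold higher in the ovary library and 6 lower, beside 5.08% higher and 61.4% lower of 8854 genes, with medians of 0.37 and −3.42 (the same with genes at 0 put at 3 counts). Under TMM factors the split was 25 higher and 4 lower. All 8854 genes then split into 976 higher and 4583 lower, against 450 and 5438 without these factors. With body counts divided by length 3 were higher and 15 lower, beside 4.84% and 57.2% of 8779 genes, and the group's median changed sign to −0.50 (−2.82 over all genes). Within the group, CPM in the iso1a body fell with length (rho −0.61), and division by length adds to that trend. The 3 higher per length were mRpL48, mRpL12 and mRpS9, each also higher on the scale of counts as deposited.

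The gene mRpL48 had 1181 counts in the ovary library, against 117 in the iso1a body, a log2 ratio of 3.97 (3.70 to 4.26) and 3.06 per length. The gene mRpL12 had 1199, against 162 (3.52, 3.29 to 3.77, and 2.52 per length), and mRpS9 had 285, against 72 (2.62 and 2.42 per length). The gene mRpL33 had 1827, against 365 (2.96), and mRpS16 had 2127, against 509 (2.70). Of these, mRpL12, mRpS9 and mRpL48 have transcripts of 738, 1293 and 790 bp.

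The lowest were mRpS25, with 0 counts, against 253 in the iso1a body (at least 54.2-fold lower), mRpL27, with 4, against 291 (−5.38, −7.43 to −4.17), and mRpS18C, with 7, against 424 (−5.18, −6.61 to −4.23). The gene mRpS22 had 8, against 132 (−3.32), and mRpL45 had 19, against 218 (−2.85). The gene mRpL13 was the sixth called lower (73 against 594, −2.38), and it shares 236 bp with CG10602 on the same strand. Over this pair of libraries rho of the ratio with length was 0.00 within the group, while against Rev and IR6 it was −0.56 and −0.52. Of 85 cytosolic ribosomal proteins, 40 were higher and 9 lower in the ovary library here, with a median of 1.62.

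For 5 genes of the group the files list more than 1 transcript. Those of mRpS10 differed in the Solexa ovary library, with 342, 19 and 342 counts for RA, RB and RC, while the iso1a body had 398, 397 and 502, Rev had 1622, 1618 and 1667, and IR6 had 1536, 1534 and 1585. Those of mRpS18B had 208 (RA) and 396 (RB) counts in the Solexa ovary library, and 176 each in Rev. Of mRpS5 the transcripts RA, RC and RD had 2739, 2490 and 1518 counts in Solexa, and RA led in Rev (2353) and IR6 (1913). In the iso1a body RD led with 1310 counts, against 961 for RA, so the level of mRpS5 given above rests on another transcript there. Of mRpL47, RB had 202 (iso1a), 985 (Rev) and 829 (IR6) counts, and RA had 143, 685 and 586, while in the ovary both had 180 in Solexa. Reads that transcripts share were counted for each of them.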

How the data were processed

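Polyadenylated RNA was measured in 5 libraries. Per the submitters' processing notes, the authors aligned reads with Bowtie, and the deposited gene files hold whole-number counts per transcript with no scaling. The genome build, the Bowtie version and the treatment of reads with several places are not given in the sources used here. What the label normalization stands for is not stated either, and it may have changed the levels of abundant transcripts. A row without a gene name held 1, 0, 681, 430 and 237 counts in the libraries pyrosequenced, Solexa, iso1a body, Rev and IR6 and was left out.

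Genes were matched by locus tag. The locus tags held for mRpL37 and mRpS34 each stand for 2 current genes, so neither was used. For each gene the transcript with the largest count was used, and a gene not listed was taken as 0. Lengths and overlaps came from the canonical transcripts of BDGP6, by symbol, and no positions were used. A ratio was the log2 of (count + 0.5) per gene total, with an exact 95% Clopper-Pearson interval conditional on the sum. A ratio needed at least 50 counts in its 2 libraries together, and calls were at 2-fold, or 4-fold for ovary against body. Where a library had 2 references a call needed both ratios past the limit and of the same sign, the ratio closer to 0 was the size, and the size was 0 where directions differed. Bounds put 3 counts in the place of 0. There were 5 comparisons and no tests, since each group had 1 library.

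Genes were named by rule: the 5 largest ratios in each direction per comparison, the 6 genes with the most and the 4 with the fewest CPM over the bodies, paralogs that share a number, called genes where 5 or fewer were called, tko and bonsai, and up to 4 genes of each context list. Other genes were named after their values were seen. The members, lists and rules were chosen with earlier results of these data known. The functions were tested on simulated counts. Under R 4.3.3, edgeR 4.0.16 gave TMM factors and DESeq2 1.42.0 gave median-ratio factors. Python 3.11.15 was used otherwise, with scipy 1.17.1, pandas 2.3.3 and numpy 2.4.6.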

Additional observations from a re-analysis of the deposited data

How the results depend on the processing

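No paired analysis was possible because each group held 1 library, and no replicate could be left out. No gene called in a comparison took the opposite sign under the alternatives run, but others did. Other totals moved all ratios to a reference alike, by less than the limit of a call, and other minimums moved none. These settings therefore could not have reversed a called gene. The gene mRpL34, called higher for Solexa over Rev and IR6 (2.00), had a size of 0.00 with body counts divided by length. Its ratios to Rev and IR6 then differed in direction. With body counts divided by length, the changes of sign given next leave out sizes that became 0. Over the 5 comparisons, 37 of 345 ratios changed sign with TMM factors, 36 with median-ratio factors, 30 with totals without the 100 most abundant genes, 19 with sums over transcripts and 1 with 1 count added, and 21 of 142 did with body counts divided by length. The group's median changed sign for Solexa over the iso1a body with body counts divided by length (0.37 as deposited, −0.50 per length), and the median over all genes did between the ovary libraries with no minimum (−0.67 at 50 counts, 0.26 with none). Without the genes that overlap another, which leaves 29, calls numbered 0 between Rev and IR6, 17 for the iso1a body, 14 between the ovary libraries, 14 for Solexa against Rev and IR6 (median 0.94) and 8 for Solexa against the iso1a body (median 0.085). Between Rev and IR6, 0 genes were higher and 4 lower at 1.5-fold, beside 13.7% and 9.33% of all genes. At 4-fold 0 were called, beside 0.631% higher and 0.563% lower of all genes. At 4-fold 20 were called for the iso1a body and 18 between the ovary libraries, and at 2-fold 38 for Solexa against the iso1a body.

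The median of the iso1a body over Rev and IR6 was 0.00 with TMM factors, 0.011 with median-ratio factors and 0.18 when totals left out the 100 most abundant genes. The calls split into 20 higher and 22 lower, 20 and 20, and 24 and 17 in the same order. All genes split into 25.4% higher and 27.8% lower, 26.4% and 26.7%, and 29.0% and 24.3%. For Solexa over Rev and IR6 the medians were 1.60, 1.79 and 1.27 in the same order, and for Solexa over the iso1a body 1.52, 1.60 and 1.37, with 29 and 30 calls under the TMM and median-ratio factors. TMM factors moved the median over all genes from −2.89 to −1.92 and from −3.42 to −2.27 in these comparisons. Sums over transcripts gave medians of 1.14 and 1.02, and body counts divided by length gave 0.00 and −0.50.

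With sums over transcripts, the share of gene counts held by the group was 0.326% in the pyrosequenced library, 0.895% in Solexa, 0.310% in the iso1a body, 0.228% in Rev and 0.244% in IR6, since totals then count shared reads more than once. With tko and bonsai added it was 1.15% in Solexa, 0.578% in the iso1a body, 0.394% in Rev and 0.413% in IR6. In the pyrosequenced ovary library, sums over transcripts called 0 of 61 genes higher and 36 lower, beside 14.9% higher and 45.0% lower of 3707 genes. The cause of the other changes was not tested. Depth limits the pyrosequenced library, where 8 genes had 0 counts.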

Other observations

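The older identifiers that stand for mRpL37 and mRpS34 together with another gene were listed with counts. CG6547, which stands for mRpL37 and CG42633, had 3 counts in the pyrosequenced and 311 in the Solexa ovary library, and 156 in the iso1a body, 1056 in Rev and 734 in IR6. CG13037, which stands for mRpS34 and CG33257, had 0 and 122 counts in the ovary libraries, and 402, 345 and 413 in the bodies. Their counts could not be assigned to either gene.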
